A study of Mus musculus with 14 samples.

Results

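The genes described here were the 9 transcripts Apoe, Trem2, Tyrobp, Lpl, Cst7, Itgax, Clec7a, Spp1 and Gpnmb, a panel named for disease-associated microglia, the state that microglia take around amyloid plaques, dying neurons and damaged myelin. Members were chosen by gene symbol, and all 9 were found among the 33939 genes of the expression table. RNA was sequenced from CD11b+ cells, microglia and macrophages, that were pulled with magnetic beads from each hemisphere of male mice 3 days after a controlled cortical impact, a model of traumatic brain injury. IL is the injured, ipsilateral hemisphere and CL the contralateral one. Control (Ctrl) mice were Cx3cr1-CreER+/- and conditional knockout (cKO) mice were Cx3cr1-CreER+/-;Nhe1flox/flox. Mice of both genotypes were on a C57BL/6 background, were 8 to 12 weeks old, carried the Cre allele and had received tamoxifen, so the floxed Nhe1 alleles were the stated difference between them. The sample titles name the Ctrl libraries wildtype and the cKO libraries knockout. Cx3cr1 drives Cre in microglia and in blood monocytes, and a waiting period after tamoxifen was used to let monocytes be replaced. Ctrl CL and Ctrl IL had 4 libraries each, from the same 4 mice (3541, 3545, 3546 and 3551). cKO CL (mice 788, 791 and 3592) and cKO IL (mice 784, 791 and 3592) had 3 libraries each, and 6 of the 8 mouse numbers occur in both hemispheres. Mice 784 and 788, with a library in one hemisphere each, were taken as different animals because their labels carry different numbers. There were no uninjured mice in the libraries used here, so CL is the hemisphere opposite the impact and not an uninjured brain.

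Values are in CPM, a gene's reads for every 1000000 reads assigned to genes in that library. Depth recovered from the spacing of the values ran from 12.2 to 41.6 M reads, with the lowest in Ctrl IL of mouse 3546. The CD11b gene Itgam was at or above 650 CPM in every library, and none of the 12 homeostatic microglia markers was at 0 in any library. Markers of other cell types were also present. The summed level of 10 infiltrating monocyte markers was 283 to 850 CPM in CL and 778 to 1313 CPM in IL of Ctrl mice, and 166 to 479 and 717 to 1108 CPM in the same hemispheres of cKO mice, and none of the 10 was at 0 in any library. The sum of 8 neutrophil markers was 1167 to 4146 CPM in CL and 763 to 1015 CPM in IL of Ctrl mice, and 964 to 1483 and 712 to 914 CPM in cKO mice. In IL most of this sum was Csf3r, at 399 to 712 CPM in Ctrl and 537 to 713 CPM in cKO. Ly6g was at most 2.65 and 0.81 CPM in IL of Ctrl and cKO, Retnlg at most 35.5 and 15.2 CPM, and S100a9 at most 244 and 84.3 CPM.

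The members act in one lipid-sensing and debris-clearing program. TREM2 is a surface receptor for lipids and lipoproteins, apolipoprotein E among them, and TYROBP (DAP12) is the adaptor through which it signals. Microglia that enter the disease-associated state lower their homeostatic genes and raise lipid-handling, lysosomal and secreted genes, in a first step that does not need TREM2 and a later one that does. Itgax (CD11c), Clec7a (dectin-1), Cst7 (cystatin F), Lpl (lipoprotein lipase), Spp1 (osteopontin) and Gpnmb are commonly used to recognise the later step.

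On the mouse genome build mm10, Apoe lies on chromosome 7 from 19696109 to 19699188 on the minus strand. The same chromosome holds Tyrobp (30413760 to 30417585, plus strand) and Itgax (128129547 to 128150657, plus strand). Clec7a (129461591 to 129472779, minus strand) and Gpnmb (49036546 to 49070929, plus strand) are on chromosome 6. Trem2 is on chromosome 17 (48346401 to 48354147, plus strand), Lpl on chromosome 8 (68880491 to 68907448, plus strand), Cst7 on chromosome 2 (150570415 to 150578944, plus strand) and Spp1 on chromosome 5 (104435118 to 104441050, plus strand). In GENCODE M21, 309 exonic bases of Spp1 are shared with the predicted transcript Gm42793 on the same strand, so reads there could be split between them. The other 8 members overlap no annotated gene. Clec7a carries the biotype polymorphic pseudogene in that release, and the other members are protein-coding.

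Promoter windows of 250 bases before to 50 bases after the start site were taken from RefSeq (GRCm38.p6), which held one for 7 of the 9 members (not Tyrobp or Lpl). Shown are 4 of them: Spp1 and Gpnmb, whose levels differed most between hemispheres, Itgax, the one member without overlap between genotypes in CL, and Trem2, which was lower in IL. Each is written 5′ to 3′ on the gene's strand from its most upstream window. Capitals mark matches, on either strand, to TGACTCA (the AP-1 site), AGGAAGT (an ETS site of the PU.1 type), CACGTG (E-box) or TCATGTG (M-box core, bound by MiT/TFE factors).
Spp1, chr5:104434861-104435160, plus strand: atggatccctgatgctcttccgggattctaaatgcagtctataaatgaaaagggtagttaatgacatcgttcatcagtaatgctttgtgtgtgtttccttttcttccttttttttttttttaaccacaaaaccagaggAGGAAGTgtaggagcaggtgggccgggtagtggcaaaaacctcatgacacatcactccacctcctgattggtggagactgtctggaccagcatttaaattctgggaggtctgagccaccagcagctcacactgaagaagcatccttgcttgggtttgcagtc
Gpnmb, chr6:49036268-49036567, plus strand: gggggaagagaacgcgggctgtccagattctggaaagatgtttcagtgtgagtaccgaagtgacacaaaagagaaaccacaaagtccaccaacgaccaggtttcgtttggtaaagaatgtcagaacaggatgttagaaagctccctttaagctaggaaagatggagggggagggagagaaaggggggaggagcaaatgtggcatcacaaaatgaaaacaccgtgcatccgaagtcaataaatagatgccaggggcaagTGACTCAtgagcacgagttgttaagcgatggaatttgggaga
Itgax, chr7:128129300-128129599, plus strand: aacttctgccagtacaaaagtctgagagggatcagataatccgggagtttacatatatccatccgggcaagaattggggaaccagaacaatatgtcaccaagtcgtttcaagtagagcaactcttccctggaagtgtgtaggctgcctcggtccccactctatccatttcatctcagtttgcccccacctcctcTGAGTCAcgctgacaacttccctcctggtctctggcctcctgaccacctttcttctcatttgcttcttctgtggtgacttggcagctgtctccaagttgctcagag
Trem2, chr17:48346151-48346450, plus strand: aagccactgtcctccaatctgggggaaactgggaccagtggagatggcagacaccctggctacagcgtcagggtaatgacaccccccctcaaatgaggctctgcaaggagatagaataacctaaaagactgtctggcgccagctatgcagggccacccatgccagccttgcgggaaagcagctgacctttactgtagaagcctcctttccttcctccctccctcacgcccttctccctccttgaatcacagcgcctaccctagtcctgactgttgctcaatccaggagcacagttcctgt
The Spp1 window held 1 match to AGGAAGT, 112 bases before the start site, and the Cst7 window, not shown, held 1 at 63 bases before it. TGACTCA was matched in Gpnmb, within the 50 bases after the start, and in Itgax, on the minus strand 56 bases before the start. No match was found in the windows of Trem2, Apoe or Clec7a, and neither CACGTG nor TCATGTG occurred in any of the 7. Among 27025 mouse promoter windows of the same length, 5.17% held TGACTCA, 9.52% held AGGAAGT, 7.24% held CACGTG and 3.72% held TCATGTG. A match of letters is a description and does not show that a factor binds there.

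Per kilobase of exon, the 9 genes covered a wide range of levels. The length used merges the exons of all annotated transcripts of a gene, at 667 bases for Tyrobp, 4946 for Trem2 and 10478 for Lpl. It can exceed the length of the transcript made, so the order of genes depends on the annotation. In Ctrl CL, Apoe was highest, at 2053 ± 476 CPM per kb (SD, n = 4), followed by Tyrobp at 1163 ± 212 CPM per kb. Spp1 and Trem2 came next and could not be ordered, at 300 ± 319 and 287 ± 32.4 CPM per kb. Cst7 (46.9 ± 25.3 CPM per kb) was above Clec7a (21.2 ± 0.781 CPM per kb) with overlapping spread, and Lpl (11.8 ± 2.94 CPM per kb), Gpnmb (7.30 ± 6.93 CPM per kb) and Itgax (2.65 ± 0.773 CPM per kb) were the lowest. In Ctrl IL, Spp1 headed the list at 9137 ± 2561 CPM per kb, beside Apoe at 6545 ± 2538 CPM per kb, and these overlapped. Tyrobp was at 1076 ± 566 CPM per kb, and Gpnmb, at 209 ± 84.4 CPM per kb, had come level with Trem2 at 180 ± 33.3 CPM per kb. In cKO IL the first places were again Spp1 (6974 ± 373 CPM per kb) and Apoe (4533 ± 1120 CPM per kb), here without overlap of their spread. The 9 transcripts together took 0.593 to 0.964% of all reads in Ctrl CL, 2.29 to 4.58% in Ctrl IL, 0.683 to 1.38% in cKO CL and 2.10 to 2.71% in cKO IL. Among all genes of a library ranked by CPM, Spp1 stood between 90th and 1567th place in Ctrl CL, between 2nd and 5th place in Ctrl IL, between 34th and 223rd place in cKO CL, and in 3rd place in every cKO IL library.

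**Figure D1:**
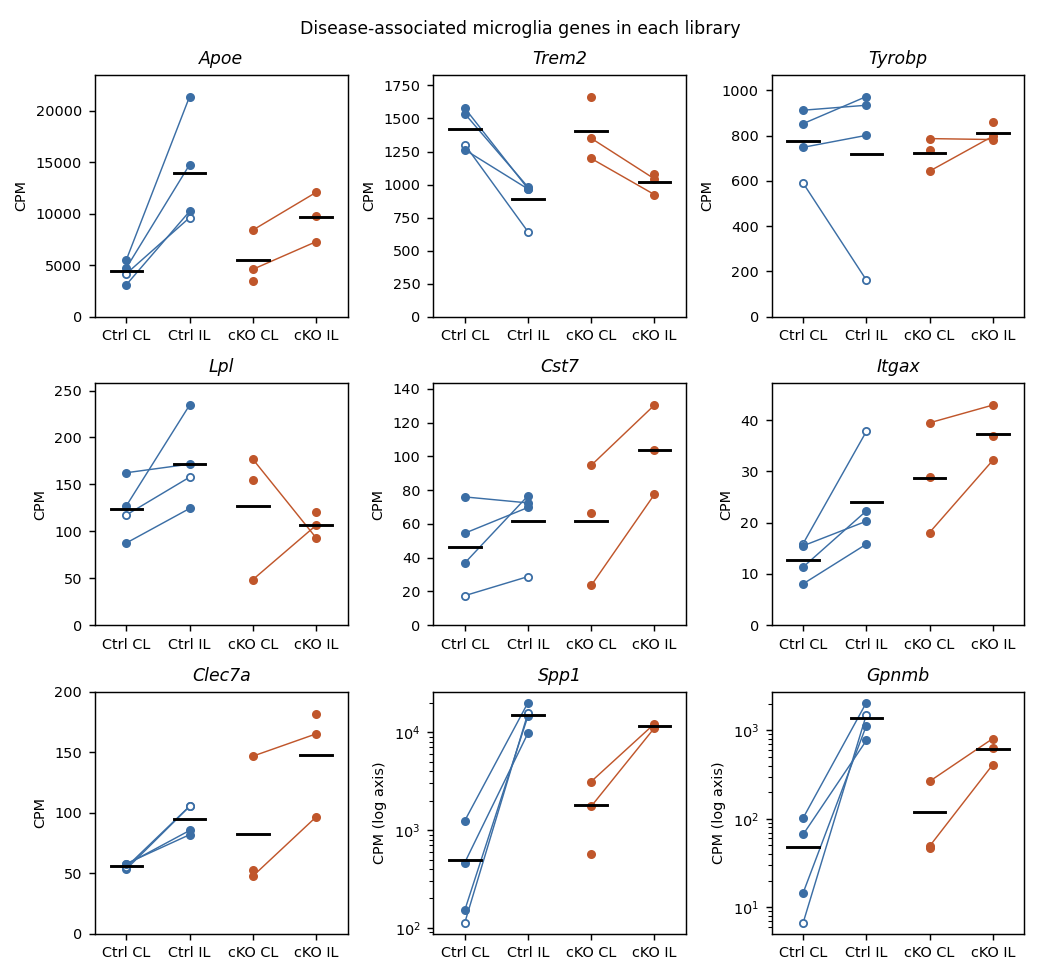
CPM of each of the 9 genes (vertical axis, linear except for Spp1 and Gpnmb, which have log axes) in the 14 libraries by group; each point is a library, lines join the hemispheres of the same mouse, black bars are group means and open points mark mouse 3546. Spp1 and Gpnmb are higher in every IL library than in any CL library of the same genotype, Trem2 is lower in every IL library, and Tyrobp is low in one library, Ctrl IL of mouse 3546.

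The comparisons below share libraries, each group entering 2 of them. The first question was how the panel differed between the injured and the opposite hemisphere in Ctrl mice. Of the 9 genes, Spp1 and Gpnmb had the largest fold changes, being higher in IL 48.4-fold and 44.3-fold. Apoe was higher 3.25-fold and the receptor Clec7a 1.75-fold. With the libraries treated as unpaired, these 4 of the 9 genes were called higher and none lower, a call being a Benjamini-Hochberg adjusted p of at most 0.05 over all genes with a fold change of at least 1.2 (limma). Across the 16376 genes tested, 3.62% were called higher and 2.96% lower. Without the further scaling of libraries between them, the split of calls over all genes moved from 593 higher and 484 lower to 625 higher and 814 lower. Since each mouse gave both hemispheres, the same test was run with mouse as a block, and then 8 of the 9 were called, 7 higher and Trem2 lower, while 9.8% of all genes were called higher and 10.7% lower. A fit of all 14 libraries with mouse as a random effect called 6, 5 higher and Trem2 lower, without Lpl and Cst7, beside 10.8% of 18476 genes called higher and 12.2% lower. The median log2 fold change of the 9 genes was 0.81, beside -0.038 for all genes tested. In the deposited values, 5 of the 9 genes (Apoe, Trem2, Clec7a, Spp1 and Gpnmb) did not overlap between IL and CL, which was so for 17.7% of all genes tested. In bulk RNA from a bead-selected population, more cells of one type and more RNA per cell cannot be told apart.

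Spp1 encodes osteopontin, a secreted phosphoprotein that binds integrins and CD44. In Ctrl CL it was at 1246, 152, 113 and 466 CPM in mice 3541, 3545, 3546 and 3551. The same mice had 20073, 14672, 15698 and 9791 CPM in IL. All IL libraries lay far above all CL libraries, and in CL the highest library was 11.0 times the lowest. The log2 fold change was 5.60 ± 0.687 (SE, adjusted p = 0.00175 by limma, n = 4 and 4), and the IL to CL ratio within a mouse ran from 16.1 to 139. Leaving out each library in turn gave 5.07 to 6.30, the highest without CL of mouse 3541.

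Gpnmb encodes a transmembrane glycoprotein of lysosomes and the cell surface. Its CL levels were 102, 14.6, 6.71 and 66.6 CPM in mice 3541, 3545, 3546 and 3551, the same order of mice as for Spp1. In IL it was at 2054, 1129, 1501 and 767 CPM, so the lowest IL library was above the highest CL library. The log2 fold change was 5.47 ± 0.757 (SE, adjusted p = 0.00283 by limma), and the ratio within a mouse ran from 11.5 to 224. Leaving out each library gave 4.78 (without CL of mouse 3546) to 6.11 (without CL of mouse 3541). Over all 14 libraries, the protein-coding gene whose centered log2 profile was nearest to that of Spp1 was Gpnmb (root mean square difference 0.578, where the Spp1 profile itself had an SD of 2.57), followed by Hal at 0.709. For Gpnmb the nearest were Spp1 and Fabp5 (0.681).

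Apoe, the lipid carrier that TREM2 can bind, was already among the 30 highest genes in every CL library. It was at 5531, 4738, 4180 and 3108 CPM in Ctrl CL and 21370, 14760, 9616 and 10229 CPM in Ctrl IL of mice 3541, 3545, 3546 and 3551. The groups did not overlap, and every mouse was higher in IL, by 2.30 to 3.86 times. The log2 fold change was 1.70 ± 0.390 (SE, adjusted p = 0.0310 by limma), and with mouse as a block the adjusted p was 0.00120. Apoe lost the unpaired call when any one of CL 3545, CL 3546, CL 3551, IL 3541 or IL 3545 was left out, with adjusted p between 0.0611 and 0.0945. The nearest profiles to Apoe were Metrnl (0.273, with an SD of 0.870 for Apoe) and Ms4a7 (0.284).

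Clec7a, the fungal glucan receptor dectin-1, had the narrowest spread of the panel in Ctrl CL, at 57.3, 53.5, 55.2 and 58.1 CPM. In Ctrl IL it was at 85.4, 105, 105 and 81.9 CPM in the same order of mice, all above CL. The estimated log2 change was 0.81 ± 0.162 (SE, adjusted p = 0.0180 by limma), and the adjusted p was 0.00244 with the block. The unpaired call was lost without CL 3546, IL 3541 or IL 3545 (adjusted p 0.0523 to 0.0648), in a single fit of all 14 libraries (adjusted p = 0.0964) and when a fold change of at least 2 was required. Its nearest profiles were Tlr2 (0.249, with an SD of 0.672 for Clec7a) and Ctsl (0.287).

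Itgax, the alpha chain of the CD11c integrin, was a low gene in these cells. It was at 11.3, 8.07, 15.9 and 15.5 CPM in Ctrl CL and 22.3, 15.8, 37.8 and 20.3 CPM in Ctrl IL. Each mouse was higher in IL, but the lowest IL library was just under the highest CL library. The log2 fold change of 0.91 ± 0.246 (SE) missed the threshold with unpaired libraries (limma adjusted p = 0.0556) and passed it with mouse as a block (adjusted p = 0.00726).

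Lpl, which releases fatty acids from lipoproteins, was at 127, 87.6, 118 and 162 CPM in Ctrl CL and at 235, 124, 158 and 172 CPM in Ctrl IL. The groups overlapped, although each mouse was higher in IL, by 1.06 to 1.84 times. The log2 fold change of 0.54 ± 0.239 (SE) was not called with unpaired libraries (limma adjusted p = 0.227) and was called with the block (adjusted p = 0.0313) but not with mouse as a random effect (adjusted p = 0.132). Cst7, an inhibitor of lysosomal cysteine proteases, was at 76.0, 54.5, 17.5 and 36.8 CPM in CL and at 72.4, 69.7, 28.8 and 76.7 CPM in IL, with overlap and 3 of 4 mice higher in IL. Its log2 fold change of 0.57 ± 0.509 (SE) had an adjusted p of 0.600 unpaired, 0.0480 with the block and 0.243 with the random effect.

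The receptor gene Trem2 was lower in IL in each Ctrl mouse, and its adaptor gene Tyrobp was called in neither direction. Trem2 was at 1579, 1536, 1302 and 1263 CPM in Ctrl CL and at 968, 981, 643 and 966 CPM in Ctrl IL, so that every IL library was below every CL library. On the log2 scale the fold change was -0.62 ± 0.250 (SE), with a limma adjusted p of 0.189 for unpaired libraries, and 0.0160 with mouse as a block. Without scaling between libraries it was also called (-0.69, adjusted p = 0.0337). After scaling over all 14 libraries, the groups overlapped, with IL of mice 3541 and 3545 at -0.054 and -0.045 from the Trem2 mean and CL of mouse 3551 at -0.058. In all 4 mice the IL level was lower, at 0.494 to 0.765 of the CL level. Tyrobp was at 912, 853, 590 and 748 CPM in CL and at 934, 973, 162 and 801 CPM in IL. In all, 3 of 4 mice were slightly higher in IL, and mouse 3546 was far lower. This was a log2 fold change of -0.31 ± 0.572 (SE, adjusted p = 0.841, and 0.576 with the block), and without Ctrl IL of mouse 3546 it was 0.37 (adjusted p = 0.411).

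The library behind the low Tyrobp value was low in general for genes with few exonic bases. Tyrobp has 667 exonic bases and Cst7 986, and both are under 1000, unlike the other 7 members. These lengths merge the exons of all annotated transcripts of a gene, so a gene above 1000 bases can still have a short transcript. The merged length of Trem2 is 4946 bases, and the length of its main transcript was not taken. Over 168 protein-coding genes with under 1000 exonic bases and a mean of at least 10 CPM, the median deviation from each gene's mean over the 14 libraries was -1.82 on the log2 scale in Ctrl IL of mouse 3546 and -0.48 in its CL library, against -0.19 to 0.64 in the other 12. Among those 12 it was higher in IL. In mice 3541, 3545 and 3551 it was 0.59, 0.64 and 0.31 in Ctrl IL, and 0.30, 0.18 and -0.072 in Ctrl CL. The cKO IL libraries were at 0.26 to 0.30, and the cKO CL libraries at -0.19 to -0.16. For 5085 genes of over 4000 exonic bases the library medians lay between -0.058 and 0.049. In IL and CL of mouse 3546, Tyrobp deviated by -2.28 and -0.45, Cst7 by -1.14 and -1.85, and Trem2 by -0.99 and 0.00029. The part of transcript length in the Tyrobp, Cst7 and Trem2 values was not tested.

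**Figure D2:**
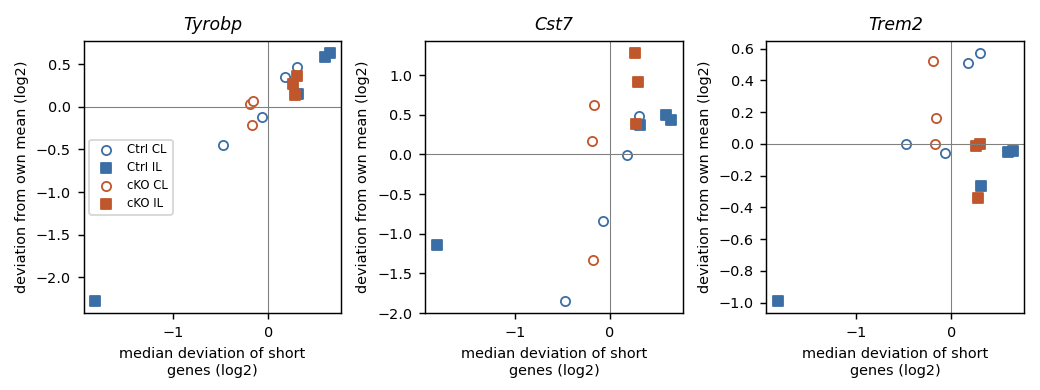
Deviation of Tyrobp, Cst7 and Trem2 from their own mean over the 14 libraries (vertical axis, log2) against the median deviation of 168 short genes in the same library (horizontal axis, log2); each point is a library, circles are CL, squares IL, blue Ctrl and orange cKO. Ctrl IL of mouse 3546 lies alone at -1.82 on the horizontal axis, where Tyrobp is at -2.28, Cst7 at -1.14 and Trem2 at -0.99.

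The same contrast was then made in cKO mice. Spp1 was higher in IL 8.32-fold and Gpnmb 7.35-fold, and these 2 of the 9 genes were called, both higher, beside 12.8% of all 16758 genes tested called higher and 9.52% lower. Without further scaling the split of calls over all genes moved from 2150 higher and 1596 lower to 1647 higher and 2146 lower. With mouse as a block, which leaves the 2 mice with both hemispheres, 4 were called, all higher (Cst7 and Clec7a in addition), beside 8.69% of all genes called higher and 4.81% lower. Under the random effect 3 were called, all higher (Clec7a in addition), beside 9.05% of all genes called higher and 7.69% lower. In the deposited values, 3 of the 9 genes (Trem2, Spp1 and Gpnmb) did not overlap between the hemispheres, which was so for 42.4% of all genes. The median log2 fold change of the panel was 0.97, against 0.019 for all genes tested.

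Spp1 was at 3133, 572 and 1749 CPM in cKO CL of mice 3592, 788 and 791, and at 12197, 11228 and 11056 CPM in cKO IL of mice 3592, 784 and 791. The highest library was 5.48 times the lowest in CL, and the IL libraries differed by less. Its log2 fold change was 3.06 ± 0.520 (SE, adjusted p = 0.00636 by limma, n = 3 and 3). Gpnmb was at 265, 46.4 and 49.1 CPM in CL and 806, 632 and 410 CPM in IL in the same orders of mice, with a log2 fold change of 2.88 ± 0.586 (SE, adjusted p = 0.0118). With the block the fold was 5.33 for Spp1 and 5.36 for Gpnmb. Leaving out each library gave log2 fold changes of at least 2.41 (without CL 788) for Spp1 and 2.48 (without CL 788) to 3.68 (without CL 3592) for Gpnmb, all called, and the ratio within a mouse was 3.89 and 6.32 for Spp1 and 3.04 and 8.36 for Gpnmb. The highest CL library of both genes was that of mouse 3592, and so was the highest IL library.

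The other members of the panel in cKO mice did not pass with unpaired libraries. Apoe was at 8407, 3508 and 4597 CPM in CL and 12067, 9730 and 7280 CPM in IL, which overlapped (log2 fold change 0.97 ± 0.365 SE, adjusted p = 0.0923 by limma). Leaving out cKO CL of mouse 3592 took Apoe past the threshold (1.32, adjusted p = 0.0220). Clec7a was at 47.6, 52.6 and 147 CPM in CL and 96.5, 182 and 165 CPM in IL, with the CL library of mouse 791 near the IL level. Its log2 fold change was 1.07 ± 0.426 (SE, adjusted p = 0.109, and 0.69 with an adjusted p of 0.0358 with the block), and without cKO CL 791 it was called (1.58, adjusted p = 0.0158). Cst7 was at 23.5, 66.5 and 94.7 CPM in CL and 77.5, 104 and 130 CPM in IL. Its log2 fold change was 1.01 ± 0.463 (SE, adjusted p = 0.155) with unpaired libraries and 1.17 (adjusted p = 0.0154) in the 2 mice with both hemispheres, and 1.09 with mouse as a random effect, which was not called.

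Trem2 was again lower in IL, at 1197, 1666 and 1350 CPM in cKO CL and 924, 1081 and 1043 CPM in cKO IL, with no overlap in the deposited values and a log2 fold change of -0.37 ± 0.185 (SE, adjusted p = 0.185 by limma). After scaling over all 14 libraries the groups overlapped, with IL of mouse 784 at -0.0010 and CL of mouse 3592 at -0.0019 from the Trem2 mean. Tyrobp was at 643, 734 and 787 CPM in CL and 797, 861 and 783 CPM in IL (0.26 ± 0.132 SE, adjusted p = 0.191). Itgax was at 18.1, 28.8 and 39.5 CPM in CL and 32.2, 37.0 and 42.9 CPM in IL (0.50 ± 0.268 SE, adjusted p = 0.212). Lpl had no steady direction, at 48.6, 154 and 177 CPM in CL and 106, 120 and 93.2 CPM in IL (0.032 ± 0.429 SE, adjusted p = 0.966). The CL library of mouse 3592 decided it, since without that library Lpl was lower in IL by a log2 fold change of -0.56 (adjusted p = 0.0141).

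**Figure D3:**
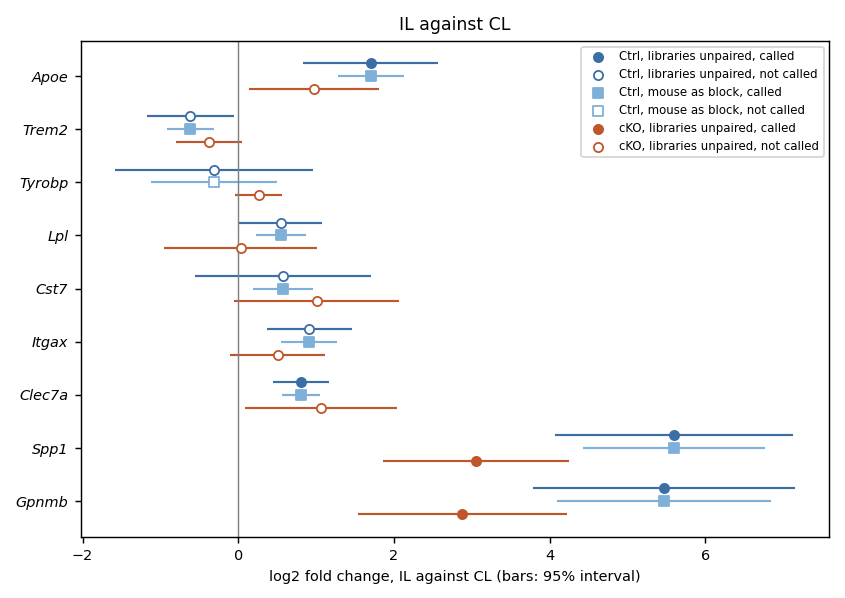
Log2 fold change of IL against CL (horizontal axis) with its 95% interval for the 9 genes in Ctrl with unpaired libraries (dark blue), in Ctrl with mouse as a block (light blue) and in cKO with unpaired libraries (orange); filled symbols are called. Spp1 and Gpnmb are at 5.60 and 5.47 in Ctrl and at 3.06 and 2.88 in cKO, Trem2 lies below 0 in all 3 fits, and the block narrows the Ctrl intervals.

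The marker lists moved beside these results. Calls are with unpaired libraries unless a block is named. Over all genes, 3.62% were called higher and 2.96% lower in Ctrl IL, and 12.8% and 9.52% in cKO IL. With mouse as a block these shares were 9.8% and 10.7% in Ctrl IL. The summed level of the 12 homeostatic markers was 45498 to 51012 CPM in CL and 23855 to 29131 CPM in IL of Ctrl mice, and 42246 to 47343 and 23897 to 26674 CPM in cKO, with 9 of 12 called lower in IL in each genotype and none higher. Of the 10 infiltrating monocyte markers, 4 were called higher in Ctrl IL and 5 in cKO IL. With mouse as a block in Ctrl, 4 of these were higher and 1 lower, and 10 of the 12 homeostatic markers were lower. Of the 8 neutrophil markers none was called in Ctrl with unpaired libraries (median log2 fold change -2.37), 6 were lower with mouse as a block, and 4 were lower in cKO. Of the 10 T and NK cell markers, 5 were tested in Ctrl, where 4 were called lower in IL (all 5 with the block), and the summed level of the list had a median of 18.3 CPM in Ctrl CL and ran from 5.55 to 6.94 CPM in Ctrl IL, below every Ctrl CL library. None of the 7 tested in cKO was called. Border-associated macrophage markers were lower for 2 of 8 in Ctrl and 1 of 8 in cKO, and dendritic cell markers were higher for 1 of 8 in Ctrl, and in cKO higher for 1 and lower for 2. With mouse as a block in Ctrl, 1 border-associated macrophage marker was higher and 4 lower, and 1 dendritic cell marker was higher and 2 lower. Oligodendrocyte and endothelial markers had no call in Ctrl with unpaired libraries, while in cKO IL 3 of 7 and 2 of 8 were higher. With mouse as a block in Ctrl, 2 of 8 oligodendrocyte markers were lower, and of the endothelial markers 1 was higher and 1 lower. Of the 8 astrocyte markers, 1 was higher and 1 lower in each genotype. The part of these cell types in the levels of the 9 genes was not tested.

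Between genotypes, no member was called in IL, where 0.658% of 16873 genes were called in either direction, and 4 of the 9 had an unadjusted p under 0.05, beside 8.9% of all genes. Gpnmb, Lpl, Spp1 and Apoe had lower means in cKO IL than in Ctrl IL, and Itgax, Clec7a, Cst7, Trem2 and Tyrobp higher ones. Gpnmb was at 410 to 806 CPM in cKO IL against 767 to 2054 CPM in Ctrl IL, overlapping by one library (log2 fold change -1.09 ± 0.362 SE, adjusted p = 0.350 by limma). Lpl was at 93.2 to 120 CPM against 124 to 235 CPM, with no overlap (-0.64 ± 0.230 SE, adjusted p = 0.401). Cst7 was at 77.5 to 130 CPM against 28.8 to 76.7 CPM, also with no overlap in the deposited values (0.81 ± 0.407 SE, adjusted p = 0.635), though after scaling over all 14 libraries the highest Ctrl IL library (0.50 from the Cst7 mean) was above the lowest cKO IL library (0.38). In the deposited values these 2 genes of the 9 did not overlap between genotypes, which was so for 10.3% of all genes. Itgax (0.69 ± 0.235 SE, adjusted p = 0.371) and Clec7a (0.61 ± 0.252 SE, adjusted p = 0.514) overlapped.

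In IL the intervals were wide for most members. For Spp1 the log2 fold change of cKO against Ctrl was -0.33, with a 95% interval from -1.07 to 0.40, and for Apoe -0.47, from -1.36 to 0.42. Trem2 had 0.22, from -0.33 to 0.77, and Tyrobp 0.48, from -0.98 to 1.95. Without Ctrl IL of mouse 3546, Tyrobp was at -0.20 (limma adjusted p = 0.569), and Itgax was called (0.86, adjusted p = 0.0474).

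In CL no member was called between genotypes either, beside 0.875% of 16570 genes, and 2 of the 9, Itgax and Spp1, had an unadjusted p under 0.05, beside 9.81% of all genes. Itgax was at 18.1 to 39.5 CPM in cKO CL and 8.07 to 15.9 CPM in Ctrl CL, and was the one member whose groups did not overlap, as in 10% of all genes (log2 fold change 1.09 ± 0.275 SE, adjusted p = 0.130 by limma). With mouse as a random effect over all 14 libraries, Itgax was called higher in cKO CL (1.09, adjusted p = 0.0351), beside 1.57% of all genes called. It was also called without cKO CL of mouse 3592 (1.41, adjusted p = 0.0357). Spp1 was at 572 to 3133 CPM in cKO CL and 113 to 1246 CPM in Ctrl CL, which overlapped (2.20 ± 0.784 SE, adjusted p = 0.346), and was called when Ctrl CL of mouse 3541 was left out (2.91, adjusted p = 0.0428). Gpnmb had a log2 fold change of 1.49 ± 0.866 (SE, adjusted p = 0.620), which ran from 0.70 (without cKO CL of mouse 3592) to 2.14 (without Ctrl CL of mouse 3541) and was not called in either. The other 6 lay between -0.14 (Lpl) and 0.37 (Cst7), with adjusted p of at least 0.764. Among the cell type markers, 1 was called in this comparison, the oligodendrocyte gene Mobp (-1.70, adjusted p = 0.0464), and the median log2 fold change of a list was -1.45 for neutrophil, -0.81 for T and NK cell, -0.75 for oligodendrocyte, -0.62 for border-associated macrophage, -0.61 for endothelial, -0.44 for infiltrating monocyte and -0.016 for homeostatic microglia markers, beside -0.055 for all genes. It was -0.13 for astrocyte and 0.21 for dendritic cell markers. In IL 1 marker was called, the homeostatic gene Olfml3 (-1.14, adjusted p = 0.0361), and the medians of the 9 lists lay between -0.22 (neutrophil) and 0.36 (dendritic cell). Their part in the genotype values was not tested.

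**Figure D4:**
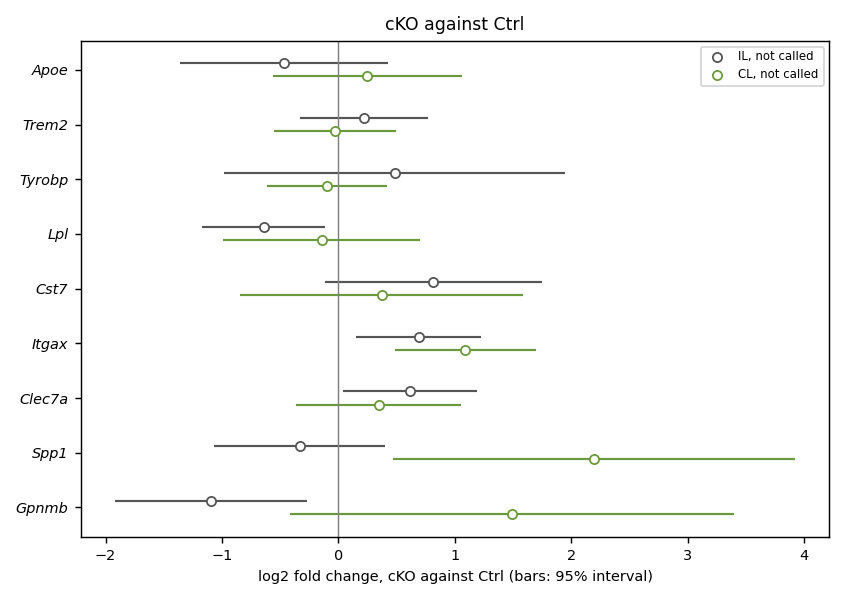
Log2 fold change of cKO against Ctrl (horizontal axis) with its 95% interval for the 9 genes in IL (grey) and CL (green); open symbols were not called, and none was called. Spp1 and Gpnmb lie below 0 in IL and above 0 in CL, and Itgax lies above 0 in both.

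Whether the IL to CL difference itself depended on genotype was tested by an interaction term over all 14 libraries, in which no member and 0% of 18476 genes were called by limma, while 481 genes (2.6%) and 2 of the 9 members had an unadjusted p under 0.05. Those members were Spp1, with an interaction of -2.53 ± 1.003 on the log2 scale (SE, 95% interval -4.68 to -0.39), and Gpnmb, with -2.59 ± 1.13 (SE, interval -4.99 to -0.18). Both had an adjusted p of 0.9999. Leaving out each library gave -3.24 (without Ctrl CL of mouse 3541) to -1.99 (without cKO CL of mouse 3592) for Spp1, and -3.23 to -1.77 for Gpnmb without the same libraries. With mouse as a random effect the adjusted p was 0.559 for Spp1 and 0.610 for Gpnmb. These intervals are negative, and the fold changes of IL against CL were 48.4 in Ctrl and 8.32 in cKO for Spp1, and 44.3 and 7.35 for Gpnmb. The differences did not pass the correction over all genes. The CL means were 494 ± 526 CPM in Ctrl and 1818 ± 1282 CPM in cKO for Spp1 (SD, n = 4 and 3), and 47.6 ± 45.1 and 120 ± 126 CPM for Gpnmb.

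Genes of the surrounding pathways were counted from lists. Over all genes tested with unpaired libraries, 3.62% were called higher and 2.96% lower in Ctrl IL, and 12.8% and 9.52% in cKO IL. With mouse as a block, 9.8% were called higher and 10.7% lower in Ctrl IL. The counts of the lists are to be read beside these shares, which differ between the fits. Of 20 other genes of the disease-associated state, 9 were called higher in Ctrl IL and 11 in cKO IL, and none lower, with a median log2 fold change of 0.78 and 0.93. Fabp5, a fatty acid carrier, was at 13.9 ± 10.1 CPM in Ctrl CL and 336 ± 164 CPM in the IL of the same mice (SD, n = 4), which is 4.68 on the log2 scale (limma adjusted p = 0.00187), and changed by 2.85 in cKO (adjusted p = 0.0141). Lgals3, which encodes galectin-3, rose by 3.24 in Ctrl (adjusted p = 0.00415) and 2.92 in cKO (adjusted p = 0.00408). The inhibitory receptor gene Lilrb4a rose by 2.05 (adjusted p = 0.000450) and 2.07 (adjusted p = 0.00200). With mouse as a block, 14 of the 20 were higher in Ctrl IL.

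Of 16 tested partners of apolipoprotein E and lipid handling, 8 were called higher in Ctrl IL and 9 in cKO IL, and none lower with unpaired libraries. With mouse as a block, 10 were higher and 1 lower in Ctrl IL. Plin2, the coat protein of lipid droplets, was at 131 ± 60.3 CPM in Ctrl CL and 1342 ± 358 CPM in the IL of the same mice (SD, n = 4), a change of 3.49 on the log2 scale (limma adjusted p = 0.00101), and rose by 2.40 in cKO (adjusted p = 0.00289). Apoc2, the activator of lipoprotein lipase, rose by 3.55 (adjusted p = 0.0146) and 2.54 (adjusted p = 0.0113). Angptl4, an inhibitor of the same enzyme, rose by 2.30 (adjusted p = 0.0116) and 1.84 (adjusted p = 0.0105). Lpl itself was not called with unpaired libraries in either genotype.

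Of the 16 genes of TREM2-TYROBP receptor signalling, none was called in Ctrl and 1 was higher in cKO IL, with median log2 fold changes of -0.12 and 0.12. With mouse as a block, 1 was higher and 3 were lower in Ctrl IL. Of 11 osteopontin and GPNMB receptors and MiT/TFE factors, 2 were higher in Ctrl IL and 3 were higher and 2 lower in cKO IL. With the block, 3 of them were higher and 1 lower in Ctrl IL. The receptor for osteopontin Cd44 was at 24.4 ± 9.09 CPM in Ctrl CL and 87.2 ± 15.8 CPM in Ctrl IL, a log2 fold change of 1.91 (limma adjusted p = 0.00591), and Sdc4, a syndecan that binds GPNMB, rose by 1.27 (adjusted p = 0.00205). They rose by 2.16 and 1.43 in cKO (adjusted p = 0.00206 and 0.00307).

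Of the CD11c partners and dectin-1 signalling genes, 1 of 9 tested was higher in Ctrl IL with unpaired libraries, 3 of 9 with the block, and 4 of 10 in cKO IL. The gene called in Ctrl with unpaired libraries was Clec4n, which encodes dectin-2, with a log2 fold change of 2.62 (limma adjusted p = 0.00190), and of 2.34 in cKO (adjusted p = 0.00676). Of 9 tested cystatins and cathepsins, none was called in Ctrl with unpaired libraries, 3 were higher and 2 lower with the block, and 3 were higher and 1 lower in cKO IL.

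**Figure D5:**
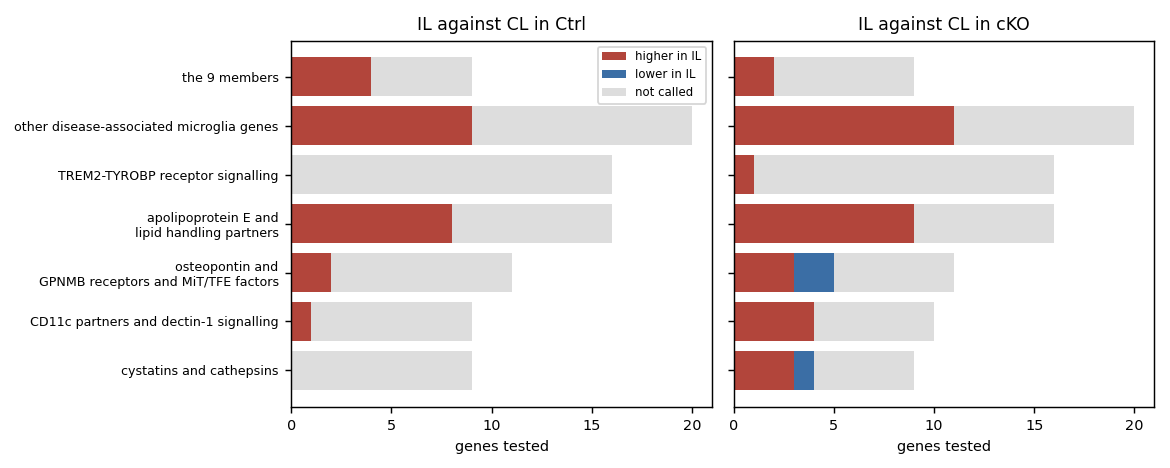
Number of genes tested (horizontal axis) in the panel and in 6 pathway lists, split into those called higher in IL (red), lower in IL (blue) and not called (grey) with unpaired libraries in Ctrl and in cKO. In the panel 4 of 9 were called in Ctrl and 2 of 9 in cKO, the other disease-associated genes had 9 and 11 of 20, and TREM2-TYROBP signalling had 0 and 1 of 16. Over all genes tested, 3.62% were called higher and 2.96% lower in Ctrl, and 12.8% and 9.52% in cKO.

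Between genotypes, 2 genes of the 6 pathway lists were called, each in both hemispheres. Itgad, which encodes the integrin alpha chain CD11d, was at 2.37 ± 0.699 CPM in cKO CL and 2.62 ± 0.673 CPM in cKO IL (SD, n = 3), against 0.185 ± 0.0970 and 0.402 ± 0.164 CPM in Ctrl (n = 4). Every Ctrl CL library (at most 0.318 CPM) lay below the filter on low values of 0.353 CPM, and Ctrl IL, at 0.257 to 0.573 CPM, lay partly below that of 0.292 CPM, so Itgad passed through the cKO libraries, where it is high, and its calls are given as a description with no p. Itgad is the next of the integrin genes after Itgax on chromosome 7 (128154376 to 128223816, plus strand), 3718 bases from its end, and Itgam lies 11055 bases before Itgax. Itgam differed little between genotypes, with a log2 fold change of 0.073 in CL (adjusted p = 0.940) and 0.32 in IL (adjusted p = 0.753). Ctsh, which encodes cathepsin H, was at 257 ± 29.3 CPM in cKO CL and 342 ± 20.5 CPM in cKO IL, against 796 ± 150 and 1101 ± 66.5 CPM in Ctrl, a log2 fold change of -1.62 in CL (adjusted p = 0.00618) and -1.67 in IL (adjusted p = 0.00212).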

How the data were processed

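RNA was amplified from sorted cells with a low-input full-length kit, sequenced, aligned to mm10 with STAR and counted and normalised in Partek Flow 8.0 by the authors. The deposited values are CPM: each library sums to 1000000, and 79.0 to 83.5% of values below 100 reads were whole multiples, within 0.03, of one step per library, from which depth (12.2 to 41.6 M reads, median 34.2 M) was computed. The deposited tables of the authors' own comparisons, which hold fold changes and p-values, were not used. Values were scaled here between libraries by an unweighted trimmed mean (30% of log ratios and 5% of mean levels trimmed), log2(CPM + 1) was taken, and limma 3.58.1 (R 4.3.3) was fitted with a mean-variance trend on genes worth at least 10 reads at median depth in as many libraries as the smaller group, with 15 reads in total. Fold changes are on that scale, which understates those of low genes. Hemispheres were compared within a genotype and genotypes within a hemisphere. All 9 members passed the filter in each comparison. The fits were tested on simulated data.

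Mouse numbers come from the labels, and a shared number marks the same animal. Deviations from group means correlated by 0.182 to 0.608 (median 0.413) over the 6 same-mouse pairs and by -0.536 to 0.503 (median -0.215) over 19 other pairs of the same genotype, with 784 and 788 (0.181) counted among the latter; whether they are one animal is not given in the sources used here, and the blocked fit in cKO rests on mice 791 and 3592. The members and lists were chosen with earlier results of these data known. Named beyond the members were, per pathway list, up to 3 called genes with the largest change of IL against CL in Ctrl and any called between genotypes, and for each member called with unpaired libraries the 2 nearest profiles. Gene names and coordinates are from GENCODE M21. Alternatives were other scalings, pseudocounts, filters, call rules, a single fit of all 14 libraries, blocks and leaving out each library. A check of the targeted gene is not reported here.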

Additional observations from a re-analysis of the deposited data

Results flagged for a closer look

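In Ctrl IL, Trem2 at 643 CPM in mouse 3546 stood apart from the other 3 libraries (966 to 981 CPM), with a gap of 0.956 of the range of the group, and Cst7 at 28.8 CPM in the same library stood apart from 69.7 to 76.7 CPM, with a gap of 0.855 of the range. Both gaps passed Dixon's critical value at the 95% level. Of the 18 groups of 4 libraries checked, 2 had such a library, where chance gives about 1 in 20. The same library had the lowest depth, 12.2 M reads, and the low level of short genes given above. Their part in the Trem2 and Cst7 values was not tested.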

How the results depend on the processing

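With replicate block by mouse, 8 members in place of 4 were called for IL against CL in Ctrl and 4 in place of 2 in cKO, and with mouse as a random effect 6 and 3, and 1 in place of 0 for cKO against Ctrl in CL. A single fit of all 14 libraries gave 1 in cKO, where Gpnmb was lost (adjusted p = 0.0520). Leaving out each library gave 2 to 4 members in Ctrl, 2 to 4 in cKO, 0 to 1 for genotype in IL, 0 to 1 in CL and 0 for the interaction. Of 927 refits of single members, 875 kept direction and side of the threshold, 12 lost a call, 18 gained one and 22 reversed in sign, and the cause was not tested. No member called with unpaired libraries reversed in the comparison in which it was called. For IL against CL in cKO, Lpl was -0.0057 with upper-quartile scaling and -0.052 unscaled, and -0.56 to 0.37 on leaving out each library. Tyrobp in Ctrl spanned -0.63 to 0.37 on leaving out each library, and -0.20 to 0.77 for genotype in IL. For genotype in CL, Trem2 was 0.048 with upper-quartile and 0.0073 with median-ratio scaling. The spans there were -0.19 to 0.10 for Trem2, -0.078 to 0.50 for Apoe, -0.26 to 0.039 for Tyrobp, -0.47 to 0.47 for Lpl, -0.057 to 0.97 for Cst7 and -0.15 to 0.66 for Clec7a. For the interaction they were -0.12 to 0.87 for Tyrobp, -0.13 to 0.84 for Cst7 and -0.032 to 0.76 for Clec7a. With no filter on low values Apoe lost its call in Ctrl (adjusted p = 0.111), as did Clec7a in a single fit of all 14 libraries (0.0964). The member value with the fewest reads was Gpnmb in Ctrl CL of mouse 3546, about 190 reads, and Itgax in Ctrl CL of mouse 3551 had about 249.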
